A study of Mus musculus with 6 samples.

Results

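Rgcc, Duox2, Nepn, Lao1, Rarb, Tmem119, Ms4a6b and Sult1a1 are 8 genes with large decreases in mouse brain endothelial cells exposed to the HIV drug dolutegravir, out of 43271 genes counted. They were chosen by the size of that decrease in these same libraries, so the difference between the groups is given for them as a description, without a test. RNA came from passaged primary cultures of brain microvascular endothelial cells, the lining cells of brain capillaries, of wild-type C57BL/6 mice. At confluence, 3 samples received the solvent alone (dimethyl sulfoxide, DMSO) and 3 received dolutegravir (DTG, which blocks HIV integrase) at 5000 ng/ml, for 24 h in both groups. The labels give both groups the same genotype, cell type and exposure time. The labels leave it unsaid if the 3 libraries of a group are separate cultures, so the spread between them may be technical. Library names carry an undefined tag, P4 in DMSO replicate 1 and DTG replicates 2 and 3, and P5 in the others, which is followed below because it splits both groups, unequally. They also hold a number, which is 1 for DMSO replicates 1 and 2, 2 for DTG replicates 1 and 2, and 3 for replicate 3 of each group. Its meaning is not given. Whether a pair with the same number has a common origin is unknown, and each library is counted as 1 of n = 3. DTG replicate 1 has DIG in its library name in place of DTG, and was placed in the DTG group by its title and treatment label. The protocols describe monolayers on gelatin-coated plates, not vessels, and in such bulk RNA fewer cells of a type and less RNA per cell cannot be told apart.

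The 8 genes belong to no common pathway. Rgcc (response gene to complement 32) encodes a small cell cycle regulator of endothelial cells that is induced by hypoxia and growth factors and marks capillaries. Rarb encodes retinoic acid receptor beta, a nuclear receptor that switches on genes when it binds retinoic acid, and retinoic acid is known to strengthen the barrier of brain endothelium. Duox2 encodes a dual oxidase that releases hydrogen peroxide, best known in thyroid and gut lining, and Lao1 an L-amino acid oxidase that also yields hydrogen peroxide. Nepn encodes nephrocan, a secreted leucine-rich repeat protein that restrains TGF-beta signalling. Sult1a1 encodes a sulfotransferase that conjugates phenols, hormones and drugs. Tmem119 and Ms4a6b encode membrane proteins better known from other cells, Tmem119 from microglia and bone-forming cells and Ms4a6b from immune cells.

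Because retinoic acid receptor beta is the textbook case of a receptor gene driven by its own ligand, the 250 bases before its start site are shown, next to those of Nepn, another of the 8 genes. Both were taken from the RefSeq promoter table, build GRCm38.p6, in which 7 of the 8 genes had an entry and Tmem119 did not. The Rarb stretch lies at chr14:16575477-16575726 on the minus strand and the Nepn stretch at chr10:52391358-52391607 on the plus strand. Capitals mark matches, in Rarb to the direct repeat of its retinoic acid response element and in Nepn to a TATA box.
Rarb: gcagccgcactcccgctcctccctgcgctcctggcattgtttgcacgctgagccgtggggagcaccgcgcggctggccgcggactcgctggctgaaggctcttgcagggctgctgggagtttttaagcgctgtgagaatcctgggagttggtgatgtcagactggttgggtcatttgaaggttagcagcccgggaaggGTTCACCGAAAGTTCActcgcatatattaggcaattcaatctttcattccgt
Nepn: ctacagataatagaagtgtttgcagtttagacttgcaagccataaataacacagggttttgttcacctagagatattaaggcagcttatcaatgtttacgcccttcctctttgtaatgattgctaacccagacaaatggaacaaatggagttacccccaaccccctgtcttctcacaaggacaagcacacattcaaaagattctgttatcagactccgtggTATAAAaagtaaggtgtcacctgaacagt
The repeat, searched on both strands as GTTCA and GTTCA with any 6 bases between them, began 52 bases before the Rarb start site. Of all 32851 promoter entries of the same length, 22 (0.067%) held it, and among the 7 it was found in Rarb alone. TATAAA began 29 bases before the Nepn start site and occurred in 12.4% of all entries. Only these exact letters were searched, so a variant TATA box in another window, that of Rarb included, would be missed. The nuclear receptor letters AGGTCA were found in Lao1, 135 bases before its start (14% of all entries), and the ETS letters CAGGAAG in Ms4a6b, 42 bases before its start (10.8% of all entries). The CRE and ATF core TGACGT (6.47% of all entries), the ATF4 and CHOP letters TTGCATCA (0.791%), the ER stress element CCAAT and CCACG with 9 bases between them (0.113%), the interferon letters TTTC and TTTC with 2 between them (2.98%) and the NF-kB letters GGG and TTTCC with 2 between them (1.41%) were in none of the 7 windows, which says only that these letters are not there. In base content the windows also varied: GC was 66.8% in Rgcc with 22 CpG pairs and 58% in Rarb with 16, against 40.4% in Nepn with 2 and 42% in Ms4a6b with 0. The median over all entries was 52.4% GC and 6 CpG pairs.

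Levels are given as raw counts and as CPM (counts per 1000000 of a library size scaled by TMM, edgeR's correction for differences in RNA composition). Library totals ranged from 41162353 to 56316335 counts. All 8 genes entered the fit of 14101 genes, which kept genes by a minimum count (about 0.1885 CPM in at least 3 libraries). Lao1 and Rarb reached that level in the DMSO libraries only, whereas the other 6 reached it in all 6 libraries. Over all genes tested, 29.3% were lower and 27.4% higher in DTG (edgeR quasi-likelihood test, adjusted p at or under 0.05). The higher genes made up 48.3% of these calls, but 30.7% where libraries were scaled by size only and 38.2% by their upper quartile. In all 8 genes the groups did not overlap, each DMSO library lying above each DTG library. Such a separation downward was found in 33.1% of all genes tested, and for the 8 it follows from how they were chosen.

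**Figure D1:**
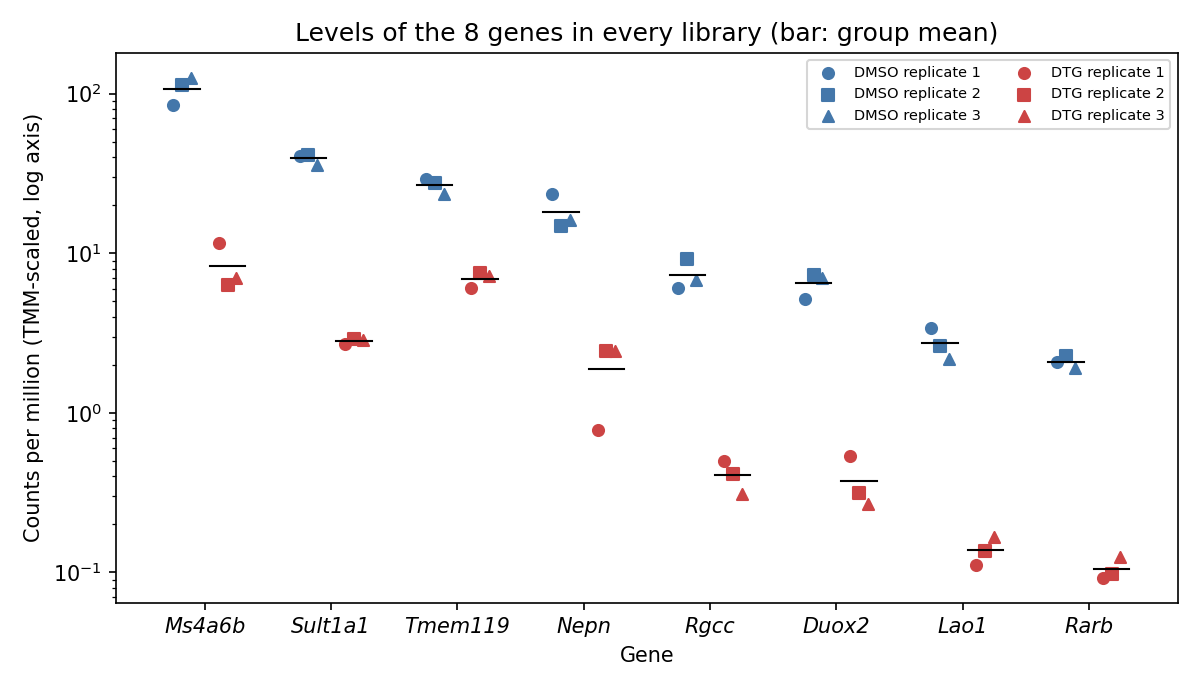
TMM-scaled CPM (log axis) of each gene in the 3 DMSO (blue) and 3 DTG (red) libraries, with marker shape for the replicate and a bar for the group mean. Each DMSO point lies above each DTG point of the same gene, and Tmem119 has the smallest gap.

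The retinoic acid receptor gene Rarb had 106, 135 and 83 raw counts in DMSO replicates 1, 2 and 3 and 5, 5 and 6 in DTG replicates 1, 2 and 3. As CPM this was 2.09, 2.27 and 1.91 against 0.0929, 0.098 and 0.124. The 3 DTG libraries held 16 counts together, with a 95% exact Poisson interval of 9.15 to 26, so the level in DTG rests on few reads. The level left in DTG was 5.03% of the DMSO mean, and the fitted log2 change was -4.29 ± 0.25 (SE). In the GENCODE annotation of build GRCm38, 34.1% of the exonic bases of Rarb are shared with Top2b on the opposite strand, and the strand setting of the counting is not given in the sources used here. Reads of these 2 genes could therefore be mixed there. The mean CPM of Top2b, a DNA topoisomerase gene, was 112 with DMSO and 105 with DTG (edgeR adjusted p = 0.495).

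Of the hydrogen peroxide enzymes, Lao1 had 173, 155 and 95 counts in DMSO and 6, 7 and 8 in DTG. Its CPM was 3.41, 2.61 and 2.19 against 0.112, 0.137 and 0.166, which left 5.05% (counting interval 3.05% to 7.71%). For Duox2 the counts were 263, 434 and 306 in DMSO and 29, 16 and 13 in DTG. The CPM of Duox2 was 5.18, 7.31 and 7.05 against 0.539, 0.314 and 0.27, with DTG replicate 1 the highest of its group (8.27% of the DMSO mean, against 4.82% and 4.14% in DTG replicates 2 and 3). Over the group Duox2 was left at 5.74% (counting interval 4.37% to 7.56%), and the fitted log2 changes of Lao1 and Duox2 were -4.29 ± 0.28 and -4.10 ± 0.25 (SE).

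Rgcc, the endothelial cell cycle regulator, had 307, 547 and 294 counts in DMSO and 27, 21 and 15 in DTG. Its CPM was 6.05, 9.22 and 6.77 against 0.502, 0.412 and 0.311, a log2 change of -4.16 ± 0.23 (SE) that left 5.56%. The sulfotransferase gene Sult1a1 had 2069, 2460 and 1548 counts in DMSO and 146, 147 and 138 in DTG. The CPM of Sult1a1 was 40.8, 41.5 and 35.6 with DMSO and 2.71, 2.88 and 2.86 with DTG, so that 7.17% was left and its coefficient of variation, 8.07% in DMSO and 3.29% in DTG, was the lowest of the 8 in both groups. With at least 138 counts in each DTG library, Sult1a1 was still readily detected. The log2 change was -3.80 ± 0.11 (SE).

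Ms4a6b, the most abundant of the 8 in counts, contributed 50.9% of their summed DMSO counts. It had 4283, 6709 and 5442 counts in DMSO and 627, 323 and 339 in DTG. In CPM this was 84.3, 113 and 125 against 11.6, 6.33 and 7.03, with 7.75% left and a log2 change of -3.69 ± 0.27 (SE). DTG replicate 1 kept 10.8% of the DMSO mean of Ms4a6b, and DTG replicates 2 and 3 kept 5.89% and 6.54%. Nepn, the TGF-beta antagonist, showed the opposite order among the DTG libraries. Its counts were 1198, 878 and 705 in DMSO and 42, 124 and 118 in DTG. The CPM of Nepn was 23.6, 14.8 and 16.2 against 0.78, 2.43 and 2.45, so 4.29% was left in DTG replicate 1 and 13.3% and 13.4% in replicates 2 and 3. Over the group 10.4% of Nepn was left, with a log2 change of -3.28 ± 0.40 (SE), the widest error of the 8.

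Tmem119 was lowered far less than the other 7 and was not nearly silenced. It had 1485, 1626 and 1017 counts in DMSO and still 327, 385 and 346 in DTG. In CPM it stood at 29.2, 27.4 and 23.4 in DMSO and at 6.08, 7.55 and 7.18 in DTG, which left 26% (counting interval 24% to 27.5%). Its log2 change of -1.95 ± 0.12 (SE) was place 234 among all genes tested when ordered from the largest decrease, whereas the other 7 took places 7 (Lao1), 8 (Rarb), 9 (Rgcc), 10 (Duox2), 15 (Sult1a1), 17 (Ms4a6b) and 33 (Nepn). A log2 change of -3 or lower was reached by 42 genes, 7 of them among the 8. The rule that chose the 8 has no numeric threshold. Among the 35 other genes past -3 are Aplnr, the apelin receptor gene (3.98% left), Igf1 (6.32% left), the interferon-induced gene Ifi27l2b (7.83% left) and the integrin gene Itga8 (9.44% left), and Tnfsf10, the TRAIL ligand gene, with 10.1% left. These 5 are the largest decreases outside the 8 among genes with at least 5 CPM in DMSO. Genes without a symbol and predicted genes (named Gm, Rik or -ps) were left out of that ranking. The median log2 change of the 8 was -3.95, against -0.02 over all genes tested.

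**Figure D2:**
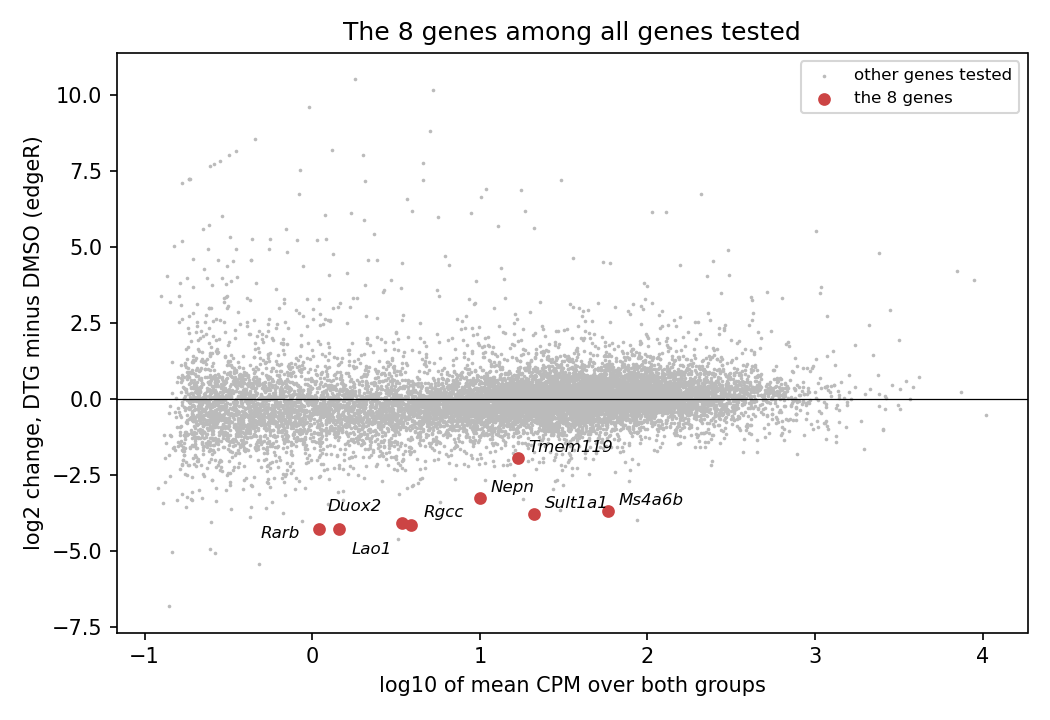
Fitted log2 change (DTG minus DMSO, vertical axis) against the log10 of the mean CPM over both groups (horizontal axis) for all 14101 genes tested (grey) and the 8 genes (red). The 8 cover a wide range of abundance, and 7 of them lie below -3 while Tmem119 lies at -1.95.

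Per kilobase of exon, the order of the genes in DMSO was Sult1a1 at 26.1 ± 2.1 CPM per kb (SD, n = 3 throughout), Ms4a6b at 24 ± 4.69, Tmem119 at 11.5 ± 1.29, Nepn at 9.11 ± 2.36, Rgcc at 8 ± 1.81, Lao1 at 1.08 ± 0.244, Duox2 at 0.962 ± 0.172 and Rarb at 0.397 ± 0.0346. The libraries of Sult1a1 and Ms4a6b overlapped in this order, as did those of Tmem119 and Nepn, Nepn and Rgcc, and Lao1 and Duox2, while the other neighbours were separate. The median over all genes tested was 5.57 CPM per kb, so 5 of the 8 were above it and 3 below it at baseline. In DTG the order per kb was Tmem119 at 2.99 ± 0.331, Sult1a1 at 1.87 ± 0.0615, Ms4a6b at 1.86 ± 0.644, Nepn at 0.943 ± 0.479, Rgcc at 0.445 ± 0.104, Duox2 at 0.0552 ± 0.0213, Lao1 at 0.0545 ± 0.0107 and Rarb at 0.02 ± 0.00322. Here Sult1a1 and Ms4a6b, Nepn and Rgcc, and Duox2 and Lao1 overlapped. All 8 were then below the median of all genes tested, which was again 5.57. The exonic length of the 8, the union of the exons of all annotated transcripts in GRCm38, ran from 0.92 kb (Rgcc) to 6.77 kb (Duox2). Its median was 2.43 kb, against 4.22 kb over all genes tested.

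**Figure D3:**
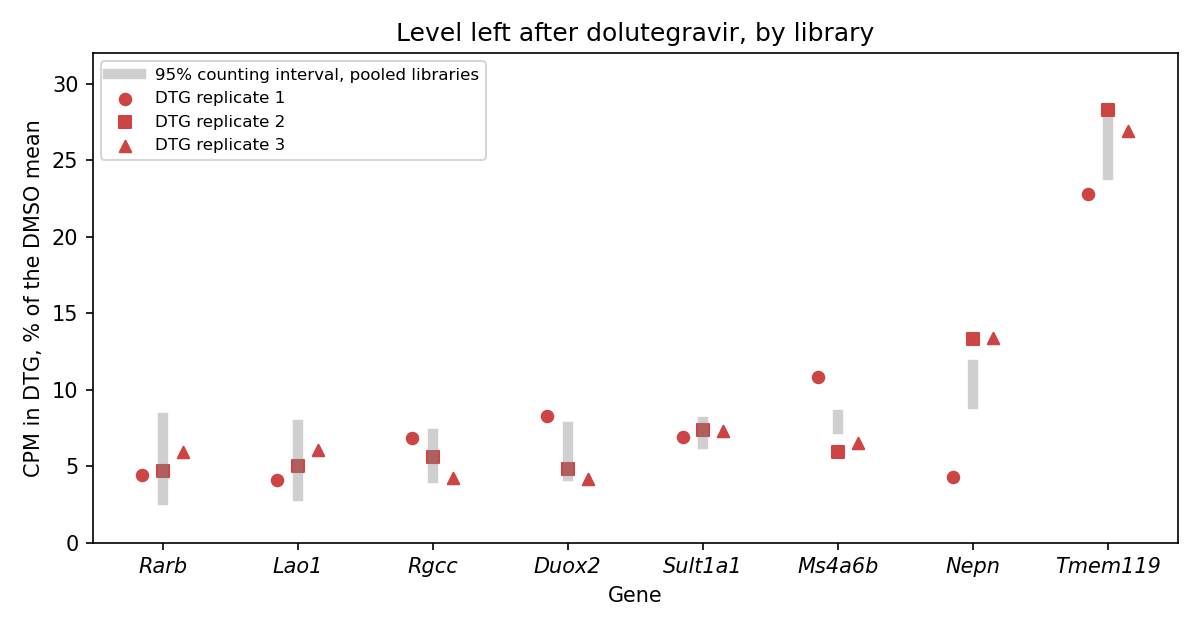
CPM in each DTG library as a percentage of the DMSO mean, by gene, with a grey bar for the 95% counting interval of the pooled libraries. Group means run from 5.03% in Rarb to 26% in Tmem119, and DTG replicate 1 lies apart from the other two in Duox2 and Ms4a6b (above) and in Nepn (below).

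Within the groups, 3 of the 8 followed the tag of the library names in one direction and 3 in the other. Rgcc, Duox2 and Ms4a6b were higher in each P5 than in each P4 library, in DMSO and in DTG alike. Nepn, Lao1 and Tmem119 were higher in each P4 library of both groups. Over all genes tested, 16.1% showed the first pattern and 16.2% the second. Rarb and Sult1a1 showed neither. Of all genes called lower, 64.8% had their highest DTG value in DTG replicate 1, and 3 of the 8 did (Rgcc, Duox2 and Ms4a6b). The decrease itself was present within each tag in all 8 genes, which follows from groups that do not overlap. However, DMSO replicate 1 is the only DMSO library of P4, and DTG replicate 1 the only DTG library of P5. As differences of mean log2 CPM with a prior count of 2, which pulls low genes toward 0, Nepn differed by -3.25 within P4 and -4.25 within P5, Ms4a6b by -3.65 and -3.35, Duox2 by -3.98 and -3.64, and Sult1a1 by -3.81 in both. Within P4 and P5 in turn, Rgcc differed by -3.94 and -3.88, Lao1 by -4.18 and -4.01, Rarb by -3.83 and -4.01 and Tmem119 by -1.985 and -2.053. The part of the tag in these differences was not tested.

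The libraries carried endothelial markers throughout, and markers of other cells were examined beside them, first those of immune cells because Tmem119 and Ms4a6b are known there. Summed over 10 endothelial markers the level was 11200 to 12100 CPM in DMSO and 6830 to 7150 in DTG, 8 of 10 being lower. Of 20 microglia and macrophage markers, 7 were listed at 0 in every library, namely P2ry12, Tyrobp, Fcrls, C1qa, C1qb, C1qc and Sall1. The pan-leukocyte gene Ptprc had at most 3 counts in a library and the macrophage receptor gene Csf1r at most 8. Only 4 of the 20 were high enough to be tested, with Trem2 and Lyz2 lower and Cd68 and Cd14 higher in DTG. The summed level of the list was 101 to 117 CPM in DMSO and 148 to 202 in DTG, most of it Cd68, a lysosomal gene of many cell types (mean 91.4 and 140 CPM). None of 10 lymphocyte markers could be tested, with a summed level of at most 0.299 CPM. Summed astrocyte markers went from 60.8 to 68.4 CPM in DMSO to 205 to 251 in DTG, nearly all of it the gap junction gene Gja1 (mean 60 and 230 CPM), with Aqp4 listed at 0 and 1 of the 8 markers lower and 1 higher. Neuron markers summed to 0.276 to 0.421 CPM and 2.28 to 6.06 CPM, through the tubulin gene Tubb3 (log2 change 5.43, the 1 of 8 that could be tested), with Map2 listed at 0. With DMSO the mean of Tubb3 was 0.103 CPM, under the filter level of about 0.1885 CPM. Tubb3 entered the fit through its DTG libraries only, so its direction was largely set by the filter. Pericyte and smooth muscle markers summed to 1.13 to 2.03 CPM and 2.02 to 2.59 CPM, with Pdgfrb the 1 of 12 that rose (by 1.86 log2) and Rgs5, Kcnj8 and Cnn1 listed at 0. Fibroblast markers (11.4 to 12.4 and 10.5 to 13 CPM, 1 of 10 lower and 1 higher), oligodendrocyte markers (42 to 50 and 33.5 to 42.3 CPM, 1 of 8 lower, with Mog, Olig1 and Olig2 listed at 0) and epithelial markers (0.345 to 0.492 and 0.539 to 0.627 CPM, 0 of 9 lower or higher, with Epcam and Ttr listed at 0) complete the lists. Nearly all of the oligodendrocyte sum was Cnp (mean 44.7 CPM with DMSO and 36.4 with DTG). The part of other cells in the decreases of the 8 genes was not tested. A listed 0 is to be read with care, since Bmpr1a, a receptor gene that most cells express, is also listed at 0 in all libraries.

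The relatives and partners of each gene were taken from lists of textbook members, none of them one of the 8, and their counts are to be read against the 29.3% lower and 27.4% higher of all genes tested. In the retinoid list, 7 of 19 tested genes fell and 3 rose, with a median log2 change of -0.13. Rbp7, a retinol-binding protein gene of endothelium, fell from 7.79 ± 0.88 to 2.54 ± 0.25 CPM (SD, n = 3 each, edgeR adjusted p = 7.33e-06). Tgm2, the transglutaminase gene that retinoic acid induces, fell from 369 ± 10.4 to 216 ± 8.84 CPM and Rxra, the partner receptor gene, from 84.8 ± 2.76 to 51.4 ± 4.06 CPM (adjusted p = 1.27e-05 and 4.09e-05). Of the other receptors, named after their values were seen, Rarg fell by 0.35 log2 and the mean CPM of Rara was 25.2 with DMSO and 25.4 with DTG (adjusted p = 0.902). The retinoic acid hydroxylase gene Cyp26a1, also named afterwards, had 24 counts in DMSO and 5 in DTG and was too low to be tested. Cyp26b1, of the same family, was at 24.8 ± 5.58 CPM with DMSO and 29.9 ± 6.95 with DTG (edgeR adjusted p = 0.279). The 3 genes of the list that rose were Dhrs9 (by 1.60 log2), Rdh11 (0.66) and Nrip1 (0.33).

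Among NADPH oxidases, their subunits and related peroxidases, 7 of 11 tested genes fell and 1 rose, with a median of -0.58 log2. Nox1, an oxidase gene, fell from 135 ± 7.93 to 20.7 ± 2.67 CPM and Noxo1, which encodes its organizer subunit, from 10.7 ± 0.74 to 3.73 ± 0.62 CPM (edgeR adjusted p = 5.45e-08 and 1.03e-05). Lpo, the lactoperoxidase gene, was the 1 that rose, from 0.033 ± 0.0228 to 0.469 ± 0.156 CPM (adjusted p = 0.000163). With DMSO Lpo lay under the filter level of about 0.1885 CPM. It entered the fit through its DTG libraries only, so its direction was largely set by the filter. Ncf1, among the 7 that fell, entered through its DMSO libraries only, at 0.298 ± 0.0538 CPM against 0.104 ± 0.0449 with DTG. The direction of Ncf1 was thus also largely set by the filter. Nox4, an oxidase gene known from endothelium, was at 10.5 ± 1.12 and 10.3 ± 0.54 CPM (adjusted p = 0.843), below Nox1 in both groups. Duoxa2, which encodes the maturation factor that Duox2 needs, had 11 counts in DMSO and 3 in DTG and was not tested, and neither was Duox1 with 21 and 0. Duox1 shares 6.05% of the 50-base stretches of Duox2 transcripts. With DESeq2, 4 genes of the list were lower, and a filter at 1 CPM left 4 lower and 0 higher, since Lpo was then not tested.

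For the oxidases that use flavin, the class of Lao1, 5 of 10 tested genes fell and 2 rose, with a median of -0.33 log2. The monoamine oxidase genes Maob and Maoa went from 1.24 ± 0.3 down to 0.138 ± 0.00757 CPM and from 92.5 ± 5.92 down to 67 ± 0.64 CPM, and Pipox, a peroxisomal oxidase gene, from 2.53 ± 0.21 down to 0.508 ± 0.0451 CPM (edgeR adjusted p = 1.59e-05, 0.000447 and 5.67e-06). With DTG Maob lay under the filter level of about 0.1885 CPM. It entered the fit through its DMSO libraries only, so its direction was largely set by the filter. The number of flavin oxidases lower was 3 without DTG replicate 2. The number higher was 1 under library-size or upper-quartile scaling and without DMSO replicate 1, and 4 without DTG replicate 1. Small leucine-rich proteins, the family of Nepn, were mostly too low to test. Of 6 tested 5 fell and 1, Tsku, rose, with a median of -1.51 log2. Chadl, among the 5 that fell, was at 0.239 ± 0.0275 CPM with DMSO and 0.105 ± 0.0169 with DTG. Like Maob it entered the fit through its DMSO libraries only, so the filter largely set its direction. Prelp fell from 7.47 ± 1 to 1.1 ± 0.11 CPM, Ecm2 from 5.97 ± 0.71 to 1.17 ± 0.26 CPM and Nyx from 2.88 ± 0.38 to 1.02 ± 0.12 CPM (adjusted p = 6.7e-07, 4.77e-06 and 6.77e-05).

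In the MS4A family, 5 of 6 tested genes fell and 0 rose (0 also at an unadjusted p under 0.05, with DESeq2 and with limma-voom), with a median of -2.25 log2. Ms4a6c fell from 7.54 ± 0.71 to 1.2 ± 0.46 CPM, Ms4a4d from 27.2 ± 5.6 to 4.74 ± 1.67 CPM and Ms4a8a from 0.827 ± 0.109 to 0.253 ± 0.0791 CPM (edgeR adjusted p = 7.56e-06, 6.18e-05 and 0.000594). Ms4a6d, far more abundant than Ms4a6b in CPM, fell from 1370 ± 292 to 719 ± 150 CPM, a log2 change of -0.93 (adjusted p = 0.0023). Ms4a4c differed by -2.20 log2 without passing (adjusted p = 0.0541). The coding sequences of Ms4a6b and Ms4a6d are 80.6% identical and those of Ms4a6b and Ms4a6c 75.9%. Of the 50-base stretches of Ms4a6b transcripts, 0.877% recur in Ms4a6d and 2.57% in Ms4a6c, so reads from these stretches cannot be assigned to 1 gene. With DTG the mean CPM of Ms4a6d was 719 and that of Ms4a6b 8.34, and how much of the latter could come from Ms4a6d was not tested.

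Sulfation genes moved in both directions, and 3 of 10 tested fell and 2 rose, with a median of -0.12 log2. Papss1 and Papss2, which make the sulfate donor PAPS, rose from 45.4 ± 3.05 to 85.4 ± 9.41 CPM and from 0.349 ± 0.245 to 2.13 ± 1.29 CPM (edgeR adjusted p = 2.94e-05 and 0.0148). Sult5a1 fell from 3.62 ± 0.41 to 1.3 ± 0.14 CPM (adjusted p = 4.54e-05). The nearest relatives Sult1b1, Sult1c1, Sult1c2, Sult1d1 and Sult1e1 had at most 7 counts in a group, and none shares a 50-base stretch with Sult1a1. The number lower was 1 without DMSO replicate 1 or 2 or DTG replicate 3, and the number higher was 1 without DTG replicate 2 or 3.

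Around Rgcc, 12 of 18 tested capillary endothelial genes fell and 3 rose, with a median of -0.92 log2. Gpihbp1, the capillary anchor of lipoprotein lipase, fell from 54.4 ± 6.25 to 12.9 ± 0.53 CPM and the VEGF receptor gene Kdr from 1853 ± 78 to 796 ± 72.8 CPM, whereas the lactate transporter gene Slc16a1 rose from 55.2 ± 8.38 to 117.7 ± 10.3 CPM (edgeR adjusted p = 2.46e-07, 2.95e-06 and 2.62e-05). Complement genes fell in 8 of 13 tested cases and rose in 1, with a median of -0.69 log2. Among the 8 that fell, C2 went from 0.336 ± 0.0317 to 0.176 ± 0.017 CPM. Its DTG mean lay under the filter level of about 0.1885 CPM, so its direction was largely set by the filter. C3, the central complement component, fell from 3421 ± 66.3 to 1689 ± 145 CPM, Masp1 from 134 ± 6.18 to 78.5 ± 2.3 CPM and C1s1 from 55.8 ± 10 to 23.8 ± 2.42 CPM (adjusted p = 7.98e-06, 1.4e-05 and 3.47e-05). Without DMSO replicate 3, 2 complement genes were higher.

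Bone formation genes, a setting in which Tmem119 is known, fell in 4 and rose in 2 of 8 tested cases, with a median of -0.08 log2. Spp1, the osteopontin gene, rose from 13.9 ± 1.8 to 113 ± 35.3 CPM, and Smad1 and Smad5, which relay BMP signals, went down from 67.2 ± 8.42 to 47.1 ± 5.06 CPM and from 148 ± 12.3 down to 110.5 ± 3.87 CPM (edgeR adjusted p = 6.26e-05, 0.00269 and 0.00141). The number lower was 2 without DMSO replicate 2 or DTG replicate 2 or 3, and the number higher was 1 without DTG replicate 2.

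**Figure D4:**
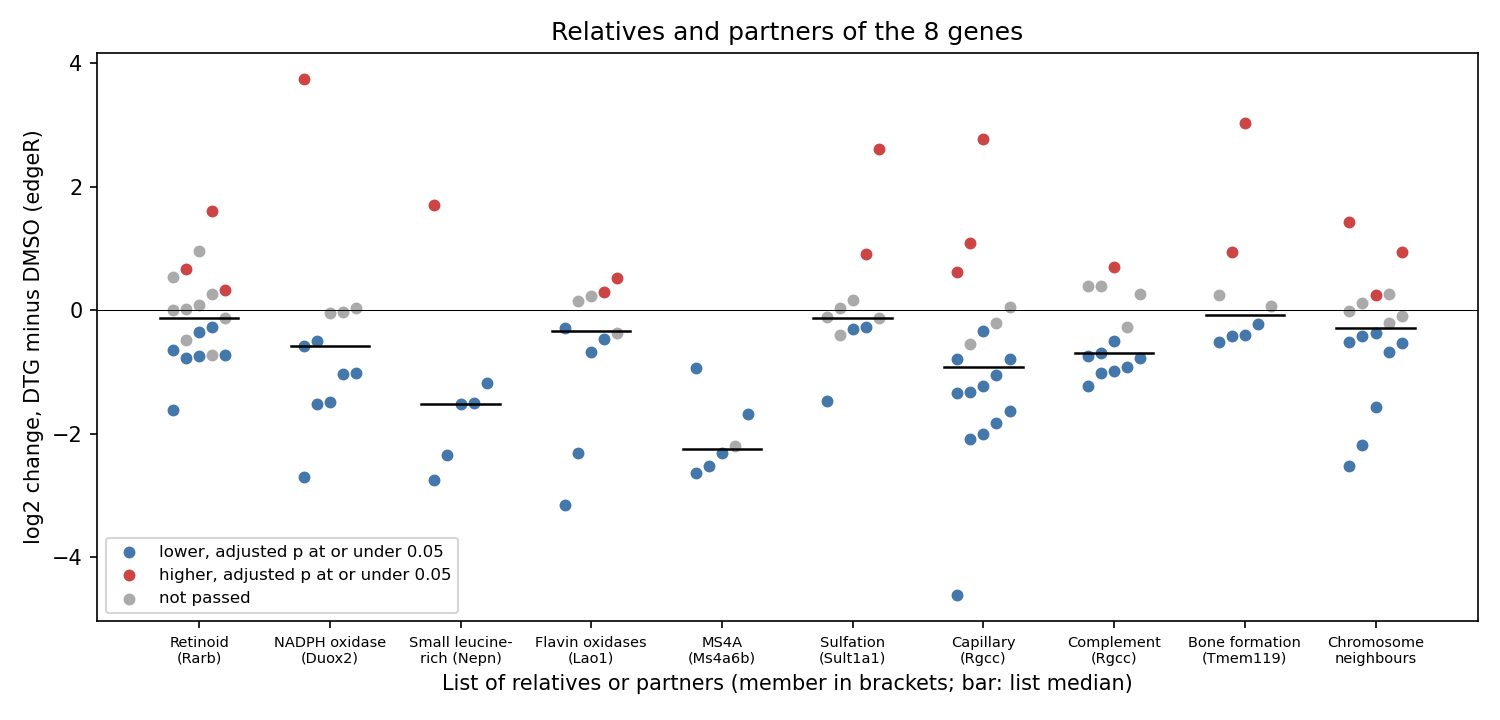
Fitted log2 change of each tested gene in 9 lists of relatives or partners and of the 16 chromosome neighbours, with blue for lower and red for higher (edgeR adjusted p at or under 0.05), grey for not passed, and a bar for the list median. The MS4A list has the lowest median, at -2.25.

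The nearest tested protein-coding genes on each side of the 8, in the gene order of RefSeq on GRCm38.p6, were 16 genes taken by position, a set added after the members' decreases were known. Of these 8 fell, 3 rose and 5 did not pass, with a median log2 change of -0.29. Over all genes tested, 29.3% were lower and 27.4% higher. The neighbour Ms4a4d is also counted in the MS4A list. Beside Ms4a6b, Ms4a4d (-2.52) and the predicted gene Gm8369 (-2.18) both fell, and these were the 2 neighbours with a change of -2 or lower. Gm8369 was at 0.455 ± 0.121 CPM with DMSO and 0.095 ± 0.079 with DTG, under the filter level of about 0.1885 CPM. As Gm8369 entered the fit through its DMSO libraries only, its direction was largely set by the filter. Beside Duox2, Sord fell by 1.56 log2 and Shf, with 3 untested genes in between, by 0.37. Beside Rgcc, Vwa8, with 1 untested gene in between, fell by 0.68 while Naa16 differed by -0.02 without passing. On the sides of Lao1, the adjacent glucose transporter gene Slc2a1 rose by 1.43 log2 and Ebna1bp2, with 13 untested genes in between, by 0.94. Thrb, the thyroid hormone receptor gene next to Rarb, fell by 0.42 log2, and Iscu next to Tmem119 by 0.52. Coro1c on the other side of Tmem119, with 1 untested gene in between, differed by -0.20 without passing. Slx1b on 1 side of Sult1a1 fell by 0.53, and Sgf29 on the other differed by 0.11 without passing. Nus1 beside Nepn rose by 0.24 (edgeR adjusted p = 0.0499), and Gopc on the other side differed by 0.26 without passing (adjusted p = 0.0546).

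Across the 6 libraries, the genes most like the mean standardised log2 CPM of the 8 were Matn2 (Pearson r = 0.9999), Epm2a (0.9997), Tef, Kif18b and Itga8 (0.9996 each) and Cpe (0.9993). Predicted genes and genes without a symbol were left out of this search. The 6 points fall into the 2 groups, so this likeness mostly reflects a difference between groups with little spread within them. The mean CPM of the matrix protein gene Matn2 was 54.7 ± 1.9 with DMSO and 13.5 ± 0.32 with DTG, and that of the integrin gene Itga8 was 10.6 ± 0.13 and 1 ± 0.0551 (SD, n = 3 each).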

How the data were processed

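RNA of 3 DMSO and 3 DTG libraries was sequenced after poly(A) selection with a strand-preserving kit, per the labels' protocols. The deposited file is 1 table of unnormalized whole-number counts for each Ensembl gene. The genome build was GRCm39 per the submitters' processing notes; aligner, counter, strandedness of counting and annotation release were not given in the sources used here. Symbols matched 38606 of 43271 identifiers (89.2%), the rest holding 0.327% to 0.486% of a library's counts. Depth was 41162353 to 56316335 counts, and intervals (95%, exact) cover counting error only. The interval of a percentage left is the exact Clopper-Pearson interval of pooled counts.

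Counts were fitted in R 4.3.3 with edgeR 4.0.16 (filterByExpr, TMM, robust quasi-likelihood F-test, group as the only term), with Benjamini-Hochberg adjustment over 14101 genes; a standard error is |log2 change| over the root of F. The pipeline was tested on simulated counts. Members and lists were chosen with earlier results of these data known. Of each list the 3 smallest p-values were named, with the relatives of Ms4a6b and Sult1a1, the 6 most similar patterns and the 5 largest other decreases; the remaining named genes were chosen after their values were seen. The chromosome neighbours, taken by position, and the Rarb repeat, from textbook knowledge, were added after the other choices. Protein sequences were not used here, and relatives were compared by coding sequence and 50-base stretches from GENCODE vM21 transcripts. Of the list genes, Sts was not matched, and 1 marker is not reported here.

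Alternatives were DESeq2 1.42.0, limma-voom (limma 3.58.1), scaling by RLE, upper quartile or library size, 2 other filters, no robust estimation, a replicate block, a term for the tag, and omission of each library in turn. The within-tag differences were chosen after seeing the data. Figures were drawn with matplotlib 3.10.9.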

Additional observations from a re-analysis of the deposited data

How the results depend on the processing

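All 8 members kept their direction under the 16 alternatives of test, scaling, filter, covariate and left-out library. This follows from their choice by large decreases in these same libraries and is no separate evidence. Of the 128 values, 4 moved by more than the spread between replicates, all with scaling by library size or upper quartile. Nepn ranged most, from -3.64 with the tag as a term to -2.86 without DTG replicate 1. Scaling by library size moved the median gene by -0.17 log2 and gave 2536 higher genes against 3860.

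List counts were small and moved by single genes. Lower NADPH oxidase genes numbered 4 with DESeq2 and 4 with the 1 CPM filter, which left 0 higher because Lpo was not tested. Higher flavin oxidases numbered 1 under library-size scaling and 1 under upper-quartile scaling. Higher sulfation genes numbered 1 without a filter, 1 with the 1 CPM filter and 1 with the replicate block. Higher bone formation genes numbered 1 with the 1 CPM filter, and lower ones 2 with the replicate block. Leaving out each library in turn gave 1 to 4 higher and 3 to 6 lower flavin oxidases, 1 to 2 higher and 1 to 4 lower sulfation genes, 1 to 3 higher and 2 to 4 lower bone formation genes, and 1 to 2 higher complement genes. Apart from fewer genes tested under the 1 CPM filter, the cause was not tested.

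The labels do not say that equal replicate numbers mark shared cultures, so the title numbers were not taken to pair the samples. Deviations from the group mean had correlations of -0.282, 0.009 and -0.052 between same-numbered libraries. Each such pair has opposite tags, so these values cannot tell if cultures were shared. With equal tags, the correlations were 0.17 and 0.196 (DMSO replicate 1 with DTG replicates 2 and 3). They were 0.105 and 0.17 for DMSO replicates 2 and 3 with DTG replicate 1. The different number in the library names, shared between groups only by replicate 3, could not serve as a block. The replicate block gave 3728 lower and 3543 higher genes against 4130 and 3860. Depth limits Rarb and Lao1, with 5 to 8 counts in each DTG library.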
